A study of Mus musculus with 7 samples.

Results

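The Gimap family (GTPases of immunity-associated proteins) was measured in single thymocytes sorted around the point where the αβ and γδ T-cell lineages separate. Its members are Gimap1, Gimap3, Gimap4, Gimap5, Gimap6, Gimap7, Gimap8 and Gimap9. They were chosen by gene symbol, and they make up 8 of the 32286 features counted. The only other feature with a Gimap symbol is Gimap1os, a noncoding transcript on the strand opposite Gimap1.

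The data are 7 sorted mouse populations of C57BL/6 background, profiled by droplet-based single-cell RNA-seq of transcript 3′ ends, with 1 library for each. The 5 wild-type (WT) libraries came from pooled thymi of both sexes at 6 to 8 weeks of age that had been depleted of CD4+ and CD8+ cells, and they held DN3a cells, αβ-lineage precursors after β-selection (DN3b γδ− and DN4 γδ−), early γδ precursors (DN3b γδ+) and immature γδ T cells (DN4 γδ+). The 2 Lat-KO libraries (DN3 γδ− and DN3 γδint) came from mice of genotype Lat-/-TCRd-H2BEGFP, which lack LAT, the adaptor that couples antigen receptors to downstream signalling, and carry a fluorescent reporter at Trdc. Trdc-GFP, the reporter transcript, had at most 3 UMIs (unique molecular identifiers, each standing for 1 captured RNA molecule) in a WT library, so LAT loss and the reporter allele cannot be told apart. The γδ− cells after β-selection were gated on CD71, a receptor of proliferating cells, the γδ+ cells on CD24 and low CD44, and 500 splenic B cells were added to each library. Because each population has 1 library, no comparison below has a replicate check, and intervals (95%) cover counting error only.

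A barcode was taken as a thymocyte when it held at least 200 genes, at most 15% mitochondrial UMIs and at most 1 UMI of Cd79a, Cd79b and Ms4a1 together. This left 71081 of 90016 barcodes, between 5274 and 18515 in a library. Depth differed: the median was 18506 UMIs per barcode in DN4 γδ− and 5738 in Lat-KO γδint. Pairs of libraries shared between 7 and 68 thymocyte barcode sequences, at most 0.660% of the smaller library. Lat, counted as CPM (UMIs of a gene in 1000000 UMIs of the thymocyte barcodes), stood at 357 to 648 CPM in the WT libraries, at 4.83 CPM in Lat-KO γδ− and at 0.899 CPM in Lat-KO γδint. Summed T-cell markers lay between 6639 and 12349.8 CPM, B-cell markers between 105 and 281 CPM, and Ncr1, which defines natural killer cells, was at 0 in all 7 libraries.

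GIMAP proteins are small GTPases of lymphocytes, and several are anchored in the membranes of lysosomes, the endoplasmic reticulum or mitochondria. They are best known for their part in the survival of lymphocytes: loss of Gimap1 or Gimap5 depletes mature T cells in mice, and a mutation of Gimap5 causes the T-cell lymphopenia of the diabetes-prone BB rat. Members of the family have been described as becoming active at different steps of T-cell development.

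All 8 genes lie in 1 cluster of 123618 bases on chromosome 6 of the mouse genome (GRCm38, mm10; GENCODE M21), from 48647234 to 48770851. Along the plus strand the order is Gimap8, Gimap9, Gimap4, Gimap6, Gimap7, Gimap1, Gimap5 and Gimap3; Gimap6 and Gimap3 are on the minus strand and the other 6 on the plus strand. Exons of Gimap1 and Gimap1os overlap by 1107 bases on opposite strands. No stretch of 50 bases was shared between the last 1000 bases of transcripts of any of the 28 pairs of members. An annotated readthrough gene, Gm28053, covers parts of exons of Gimap7, Gimap1 and Gimap5, and it is not among the features counted.

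The promoters are shown in 2 groups of members, cut by level after the levels in the results that follow were known. RefSeq (GRCm38.p6) gave a start site for each of the 8 members, and of Gimap8, which has 2, the upstream one is printed. Each sequence runs from 100 bases before the start to 50 bases after it, 5′ to 3′ on the strand of the gene, and capitals mark the ETS-type motif GGAAGT on either strand. These are the 4 members at 7 CPM or more in every library.
Gimap1, chr6:48738947-48739096, plus strand: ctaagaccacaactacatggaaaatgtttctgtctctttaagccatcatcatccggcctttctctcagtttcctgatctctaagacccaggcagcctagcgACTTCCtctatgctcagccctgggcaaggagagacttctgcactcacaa
Gimap5, chr6:48746097-48746246, plus strand: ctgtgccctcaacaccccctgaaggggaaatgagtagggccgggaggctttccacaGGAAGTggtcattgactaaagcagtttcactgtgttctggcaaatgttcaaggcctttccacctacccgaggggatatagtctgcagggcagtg
Gimap6, chr6:48708195-48708344, minus strand: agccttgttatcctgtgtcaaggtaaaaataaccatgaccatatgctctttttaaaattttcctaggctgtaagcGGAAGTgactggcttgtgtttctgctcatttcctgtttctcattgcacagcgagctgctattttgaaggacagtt
Gimap9, chr6:48676035-48676184, plus strand: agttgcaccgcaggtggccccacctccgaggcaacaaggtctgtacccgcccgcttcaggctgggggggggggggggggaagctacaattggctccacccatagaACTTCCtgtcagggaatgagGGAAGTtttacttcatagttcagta
These are the 4 members that stayed under 6 CPM in every library other than DN4 γδ+.
Gimap3, chr6:48770802-48770951, minus strand: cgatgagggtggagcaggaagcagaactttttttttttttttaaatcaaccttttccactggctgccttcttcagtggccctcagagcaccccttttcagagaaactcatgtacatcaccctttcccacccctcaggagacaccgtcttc
Gimap4, chr6:48684478-48684627, plus strand: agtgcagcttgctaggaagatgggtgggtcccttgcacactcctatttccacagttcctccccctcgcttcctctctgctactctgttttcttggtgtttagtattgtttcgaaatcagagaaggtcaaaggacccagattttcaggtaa
Gimap7, chr6:48718521-48718670, plus strand: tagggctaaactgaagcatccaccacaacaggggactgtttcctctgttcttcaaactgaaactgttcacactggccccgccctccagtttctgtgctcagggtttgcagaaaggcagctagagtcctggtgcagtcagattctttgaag
Gimap8, chr6:48647134-48647283, plus strand: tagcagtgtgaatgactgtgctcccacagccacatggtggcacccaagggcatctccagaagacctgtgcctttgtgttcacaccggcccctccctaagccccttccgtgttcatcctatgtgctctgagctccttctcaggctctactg

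Over each whole RefSeq promoter window, GGAAGT occurred in Gimap1, Gimap5, Gimap6 and Gimap9 and in none of Gimap3, Gimap4, Gimap7 and Gimap8. Of all 32851 such windows of equal length, 23.8% held it, and of all genes 26.6% held it in at least 1 of their windows, the share given in parentheses for the other motifs. The 10 motifs named here were searched on both strands after the levels were known, and GGAAGT and TGGGAA can share letters. Of the 10, GGAAGT is the only motif that follows the 2 groups, and it is the one marked above. With groups and motifs both read after the levels, this match is description only. The KLF-type motif CCACCC occurred in 5 of 8 members (34.1% of all genes) and the STAT-type motif TTCNNNGAA in 4 of 8, namely Gimap3, Gimap6, Gimap7 and Gimap8 (9.55%). Both matches of Gimap8 are in its downstream window, which is not printed. RUNX-type TGTGGT occurred in Gimap1, Gimap4 and Gimap7 (18.9%), TCF- and LEF-type CTTTGA in Gimap4 and Gimap7 (18.2%), and FOXO-type TGTTTAC in Gimap3 alone (4.05%). The E-protein motif CAGGTG was found in Gimap9 (22.6%), the RBPJ-type motif TGGGAA in Gimap3 (28.3%), the TATA box TATAAA in Gimap6 (15.7%) and the GATA-type motif AGATAA in no member (12.7%). A match of letters is a description and was not tested as a binding site.

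The family as a whole was highest in DN4 γδ+, at 1087 CPM (1079 to 1095). It stood at 378 CPM in DN3a, 365 CPM in Lat-KO γδ− and 403 CPM in Lat-KO γδint, at 322 CPM in DN3b γδ+, and was lowest in the γδ− cells after β-selection, at 205 CPM in DN3b γδ− and 164 CPM in DN4 γδ−. Each of the 8 members was at its highest in DN4 γδ+. UMIs were counted at 3′ ends, so CPM was not scaled to transcript length. CPM is a share of the UMIs counted and not an amount per cell. The median was 7275 UMIs per barcode in DN3a, 16948 in DN3b γδ− and 18506 in DN4 γδ−. Without thinning, a Gimap UMI was in 90.3% of DN3a and 91.0% of DN3b γδ− barcodes. The part of RNA content per cell in these levels was not tested.

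**Figure D1:**
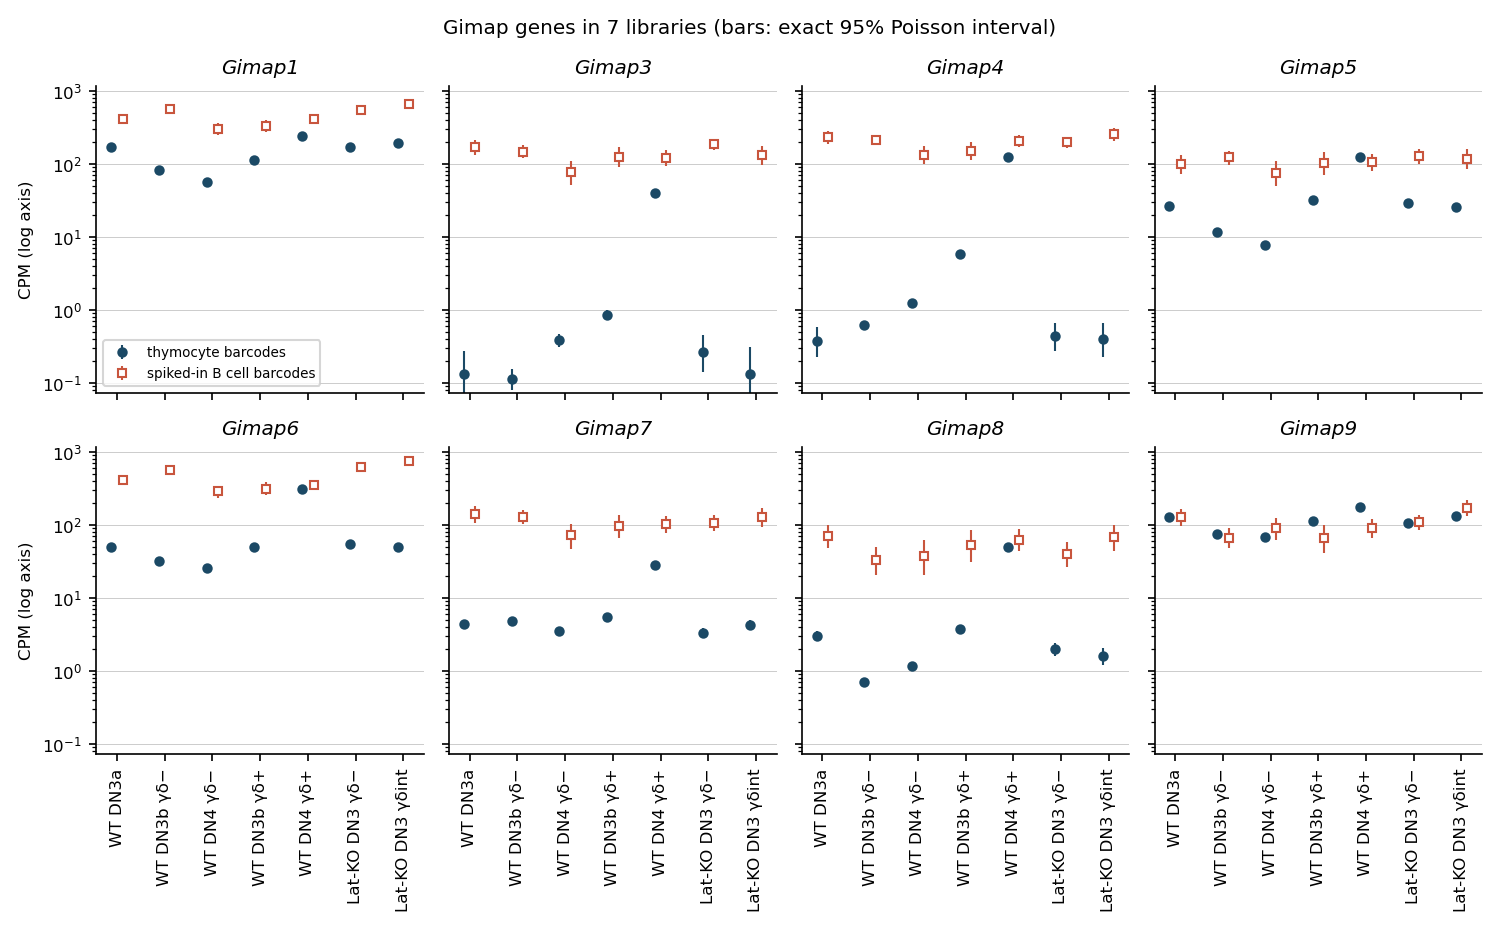
Level of each Gimap gene (CPM, log axis) in the thymocyte barcodes (filled circles) and in the spiked-in B-cell barcodes (open squares) of the 7 libraries, with exact 95% Poisson intervals. In thymocytes Gimap3 and Gimap4 sit below 6 CPM in 6 libraries and at 39.5 and 124 CPM in DN4 γδ+, whereas Gimap1 and Gimap9 sit above 50 CPM in all 7; the B cells hold every member in every library.

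Gimap1, Gimap9, Gimap5 and Gimap6 were already present in DN3a. Gimap1, which mature lymphocytes need to survive, ran from 239 CPM in DN4 γδ+ through 190 in Lat-KO γδint, 171 in Lat-KO γδ−, 167 in DN3a, 112 in DN3b γδ+ and 81.1 in DN3b γδ− down to 56.7 in DN4 γδ−. Gimap9, a member of less known function, ran from 176 CPM in DN4 γδ+ through 131 in Lat-KO γδint, 127 in DN3a, 113 in DN3b γδ+, 106 in Lat-KO γδ− and 74.2 in DN3b γδ− down to 67.7 in DN4 γδ−. These 2 genes varied least among the libraries, 4.21-fold and 2.59-fold from lowest to highest. The order had near ties: Gimap1 differed by less than counting error between Lat-KO γδ− and DN3a (log2 ratio 0.03, -0.02 to 0.07), as did Gimap9 between Lat-KO γδint and DN3a (0.05, 0.00 to 0.10).

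Gimap5 and Gimap6 were present at lower levels early and stood far higher in DN4 γδ+ than in the other populations. Gimap5, the lysosomal member whose loss causes lymphopenia, ran from 122 CPM in DN4 γδ+ through 31.8 in DN3b γδ+, 28.5 in Lat-KO γδ−, 26.4 in DN3a, 25.3 in Lat-KO γδint and 11.7 in DN3b γδ− down to 7.67 in DN4 γδ−. Gimap6, which takes part in autophagy, ran from 311 CPM in DN4 γδ+ through 54.3 in Lat-KO γδ−, 49.9 in DN3b γδ+, 49.7 in Lat-KO γδint, 49.5 in DN3a and 31.8 in DN3b γδ− down to 25.7 in DN4 γδ−. The levels of Gimap6 in DN3b γδ+, Lat-KO γδint and DN3a differed by less than counting error (log2 ratios of 0.01 between neighbours). Highest over lowest library came to 15.9-fold for Gimap5 and 12.1-fold for Gimap6.

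Gimap4 and Gimap3 were close to absent outside DN3b γδ+ and DN4 γδ+, and low in DN3b γδ+. Gimap4, reported to speed the death of T cells, ran from 124 CPM in DN4 γδ+ through 5.81 in DN3b γδ+, 1.22 at the DN4 γδ− stage, 0.617 in DN3b γδ−, 0.437 in Lat-KO γδ− and 0.397 in Lat-KO γδint down to 0.372 in DN3a. Gimap3, a close relative of Gimap5 that binds members of the Bcl2 family, ran from 39.5 CPM in DN4 γδ+ through 0.843 in DN3b γδ+, 0.378 in DN4 γδ−, 0.258 in Lat-KO γδ−, 0.132 in Lat-KO γδint and 0.130 in DN3a down to 0.112 in DN3b γδ−. For both, DN3b γδ+ came next after DN4 γδ+, and its interval lay above that of every library further down. The DN3a level of Gimap3 rests on 7 UMIs and that of Lat-KO γδint on 5.

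Gimap7 and Gimap8 were detectable at low levels from DN3a on. Gimap7 ran from 27.9 CPM in DN4 γδ+ through 5.41 in DN3b γδ+, 4.82 in DN3b γδ−, 4.32 in DN3a, 4.28 in Lat-KO γδint and 3.47 in DN4 γδ− down to 3.28 in Lat-KO γδ−. Gimap8 ran from 48.9 CPM in DN4 γδ+ through 3.76 in DN3b γδ+, 3.03 in DN3a, 1.97 in Lat-KO γδ−, 1.59 in Lat-KO γδint and 1.17 in DN4 γδ− down to 0.706 in DN3b γδ−. Below DN4 γδ+, Gimap7 spanned a narrow range, while Gimap8 was 4.30-fold lower in DN3b γδ− than in DN3a. Gimap1os, the transcript opposite Gimap1, stood at 49.3 CPM in DN4 γδ+, 12.5 in DN3a, 9.14 in DN3b γδ+, 6.52 in Lat-KO γδ−, 4.10 in Lat-KO γδint, 2.91 in DN3b γδ− and 2.45 in DN4 γδ−. How strand was used in counting is not given in the sources used here, so reads of Gimap1 and Gimap1os in their shared bases are uncertain.

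The make-up of the family differed between stages. Gimap1 and Gimap9 together gave 77.9% of Gimap UMIs in DN3a, 69.7% to 79.8% in the 5 other libraries below DN4 γδ+, and 38.1% in DN4 γδ+. Gimap3, Gimap4, Gimap7 and Gimap8 together gave 2.08% in DN3a, 4.92% in DN3b γδ+ and 22.1% in DN4 γδ+. Gimap6 gave 13.1% in DN3a and 28.6% in DN4 γδ+, where no member gave a larger share. In the 975 spiked-in B-cell barcodes of all libraries, Gimap6 gave 29.1%, Gimap1 28.3%, Gimap4 12%, Gimap3 8.41% and Gimap9 6.00%.

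**Figure D2:**
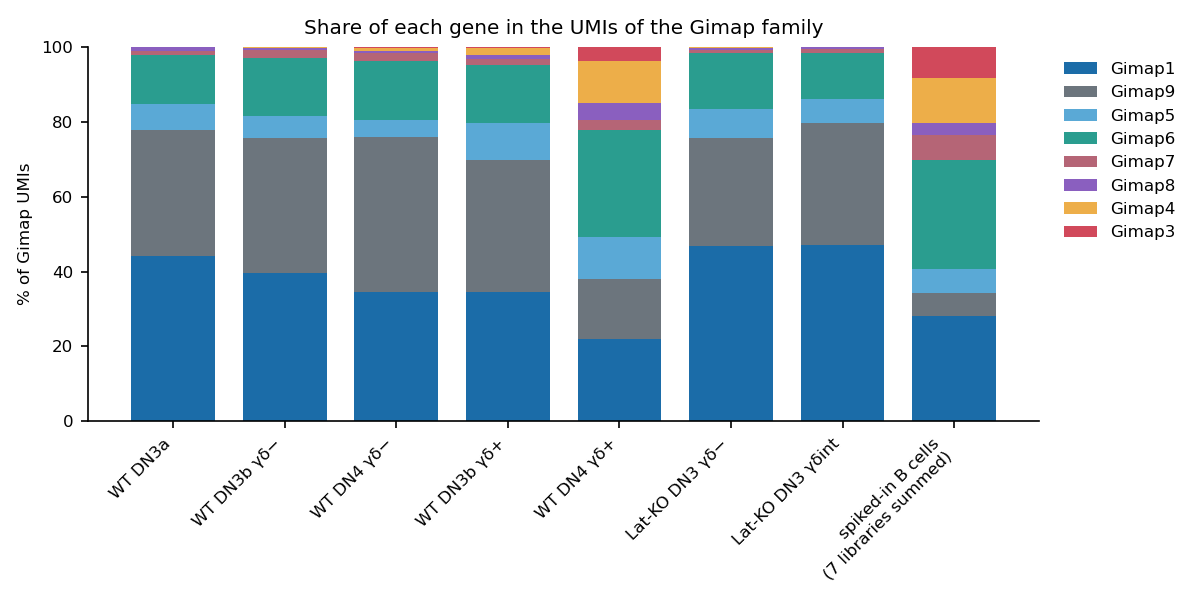
Share of each Gimap gene (% of the UMIs of the family) in the thymocyte barcodes of 7 libraries and in the spiked-in B cells of all libraries summed. Gimap1 and Gimap9 make up 77.9% of the bar in DN3a and 38.1% in DN4 γδ+, where Gimap3, Gimap4, Gimap7 and Gimap8 reach 22.1%.

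The spiked-in splenic B cells, the same kind of cell in every library, gave a measure of how far libraries differ. In them the family ranged from 1071 CPM in the DN4 γδ− library to 2271 CPM in the Lat-KO γδint library, 2.12-fold. Over the members, the highest library exceeded the lowest by 1.70-fold (Gimap5) to 2.60-fold (Gimap9). The range of Gimap9 in thymocytes, 2.59-fold, was no wider than that in B cells, whereas those of Gimap3, Gimap4 and Gimap8 were 352-fold, 333-fold and 69.3-fold against 2.40-fold, 1.92-fold and 2.15-fold. The B-cell barcodes held 2416 to 3747 UMIs in the median, so their values carry more counting error.

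The share of barcodes with a UMI was compared at 4000 UMIs per barcode, which left out between 343 and 1769 shallower thymocyte barcodes in a library. At that depth Gimap4 was detected in 33.4% of DN4 γδ+ barcodes (32.3% to 34.5%), 2.62% of DN3b γδ+, 0.643% of DN4 γδ−, 0.243% of DN3b γδ−, 0.170% of DN3a, 0.114% of Lat-KO γδ− and 0.110% of Lat-KO γδint. Gimap3 was detected in 13.2% of DN4 γδ+, 0.461% of DN3b γδ+, 0.254% of DN4 γδ−, 0.0283% of DN3b γδ−, 0.0816% of Lat-KO γδ−, 0.0220% of Lat-KO γδint and 1 of 6462 DN3a barcodes. Without thinning these were 42.1% (Gimap4) and 18.1% (Gimap3) in DN4 γδ+. Gimap1 was detected in 61.8% of DN4 γδ+ and 27.7% of DN3b γδ− barcodes at 4000 UMIs, and Gimap6 in 68.2% and 12.5%.

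Few cells in these libraries should lack the family, so background from free RNA was not measured directly. The 39 barcodes with at least 20% haemoglobin UMIs were too few for a share: they held 7 Gimap UMIs among 94466. Unthinned, Gimap4 was in 32.4% to 48.5% of spiked-in B-cell barcodes and in 0.279% of DN3a barcodes of 7275 UMIs in the median. Shares of Gimap3 and Gimap4 as low as in DN3a cannot be told apart from free RNA and are not read as expression.

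From DN3b γδ+ to DN4 γδ+, 7 of the 8 members were higher past 2-fold and 0 lower. A gene was compared when it had at least 20 UMIs over both libraries and over 3 in 1 of them, and of 14612 such genes 20.6% were higher past 2-fold and 8.03% lower. Gimap3 was 46.8-fold higher (log2 ratio 5.55, 5.32 to 5.78), Gimap4 21.3-fold (4.41, 4.32 to 4.50) and Gimap8 13.0-fold (3.70, 3.59 to 3.82). In DN3b γδ+ these 3 and Gimap7 were the 4 lowest members. Gimap6 was 6.23-fold higher, Gimap7 5.15-fold, Gimap5 3.83-fold and Gimap1 2.14-fold, while Gimap9, at 1.56-fold, did not reach 2-fold. The 2.14-fold of Gimap1 was no wider than its 2.18-fold range among the B cells of the 7 libraries, which runs from DN4 γδ− to Lat-KO γδint. In the B cells of the 2 libraries compared here, Gimap1 was at 404 CPM (DN4 γδ+) and 328 CPM (DN3b γδ+). With TMM scaling factors, which set most genes level between libraries, Gimap1 came to a log2 ratio of 0.79, which left 6 members past 2-fold. The median log2 ratio was 2.50 over the members and 0.24 over all genes. Summed markers of other cells were also read: those of mature αβ T cells were at 106 CPM in DN4 γδ+ and 43.6 CPM in DN3b γδ+ and those of B cells, mostly Ighm, at 281 and 105 CPM. The list of NK and innate lymphoid cells stood at 302 and 182 CPM, but over 99% of it in each library was Gata3, which T-lineage cells express; without Gata3 it was at 0.730 and 0.153 CPM, with Ncr1 at 0 in both. Of these lists the plasmacytoid one, which includes the thymocyte homing receptor Ccr9, differed most, at 1062 and 336 CPM, with Siglech at 0 in DN4 γδ+; without Ccr9 it was at 168 and 170 CPM. In DN4 γδ− the mature αβ T, B-cell and plasmacytoid lists stood at 124, 263 and 275 CPM, and the NK and innate lymphoid list without Gata3 at 0.0370 CPM, with Ncr1 and Il1rl1 at 0. The mature αβ T sum was 79.5% Cd8b1 in DN4 γδ− but 73.0% Trac in DN4 γδ+, so the 2 sums are not alike. The part of these lists in the ratios of DN4 γδ+ to both populations was not tested.

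Proliferation moved with this comparison. Barcodes with over 2 UMIs of 12 cycling markers at 4000 UMIs made up 93% of DN3b γδ+ and 25.5% of DN4 γδ+. In all 7 libraries the family was higher in the non-cycling barcodes, by 0.39 (DN3a) to 1.11 (DN4 γδ−) on the log2 scale, so the ratio was also taken within each class, of which the cycling class was added after the data were seen. Among non-cycling barcodes the family was at 436 CPM in DN3b γδ+ and 1296 CPM in DN4 γδ+, a log2 ratio of 1.57 (1.52 to 1.62), and 7 of 8 members were past 2-fold. Among cycling barcodes it was at 316 and 772 CPM, a log2 ratio of 1.29 (1.27 to 1.31), with 6 of 8 past 2-fold. The share of all genes past 2-fold within a class is not given, here or in the comparisons below. The shares of the whole libraries do not stand in for it, so counts of members within a class are description only. Gimap3 was higher by a log2 ratio of 3.29 in the first class and 5.08 in the second, Gimap4 by 3.55 and 3.96, Gimap8 by 3.16 and 2.95 and Gimap6 by 2.14 and 2.01.

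DN4 γδ+ and DN4 γδ− were the latest populations sorted on each path. The DN4 γδ− cells are still precursors, which the study places before the CD4+CD8+ stage. For DN4 γδ+ over DN4 γδ−, all 8 members were higher past 2-fold and none lower, where 26.0% of 15220 genes were higher and 11.8% lower. Gimap3 was 104-fold and Gimap4 101-fold higher, Gimap8 41.8-fold, Gimap5 15.9-fold, Gimap6 12.1-fold, Gimap7 8.02-fold, Gimap1 4.21-fold and Gimap9 2.59-fold. The median log2 ratio was 3.79 over the members and 0.29 over all genes. DN4 γδ− held 95.6% cycling barcodes. Among non-cycling barcodes alone the ratios were smaller: 4.83 on the log2 scale for Gimap3 (against 9 UMIs in DN4 γδ−), 4.22 for Gimap4, 3.27 for Gimap8, 2.47 for Gimap6, 2.41 for Gimap5, 1.95 for Gimap7 and 1.20 for Gimap1. There 7 of 8 members stayed past 2-fold and Gimap9 came to 0.90 (0.77 to 1.03). Among cycling barcodes alone all 8 were past it, from 1.23 (Gimap9) to 6.35 (Gimap4).

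DN4 γδ+ and DN3a were both mostly non-cycling, with 25.5% and 8.74% cycling barcodes, and 6 of 8 members were higher past 2-fold and none lower in DN4 γδ+. Of 14089 genes, 15.1% were higher and 12.5% lower. Gimap4 was 333-fold and Gimap3 303-fold higher, ratios against 20 and 7 UMIs in DN3a. Those DN3a levels were not told apart from free RNA, so the size of these 2 folds is uncertain. Gimap8 was 16.1-fold, Gimap7 6.45-fold, Gimap6 6.29-fold and Gimap5 4.61-fold higher. Gimap1 and Gimap9 were 1.43-fold and 1.38-fold higher, less than the 2.18-fold and 2.60-fold range of the same genes among the B cells of the 7 libraries. Mature αβ T markers summed to 106 CPM in DN4 γδ+ and 3.26 CPM in DN3a, NK and innate lymphoid markers other than Gata3 to 0.730 and 0.0558 CPM with Ncr1 at 0 in both, and B-cell markers to 281 and 143 CPM, and their part in the ratios was not tested. Within non-cycling and within cycling barcodes 6 of 8 members were again past 2-fold, with Gimap7 at a log2 ratio of 3.11 and 1.34. The median log2 ratio of the 8 members came to 2.67 and that of all genes to -0.02.

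**Figure D3:**
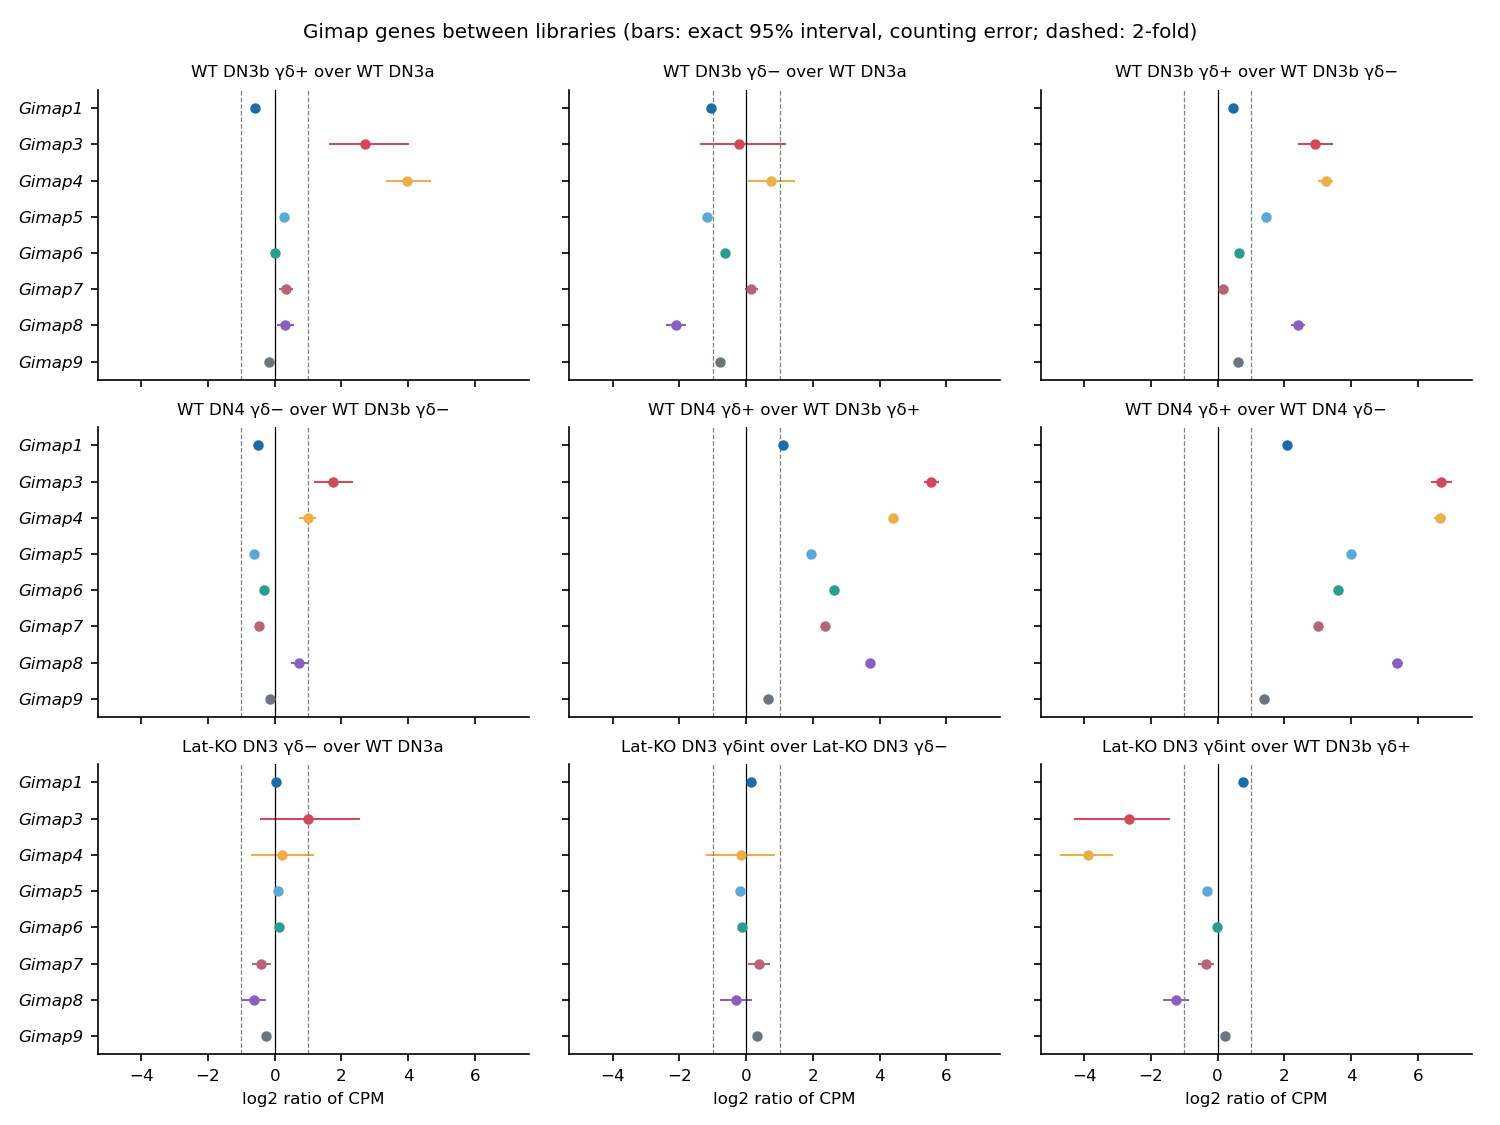
Log2 ratio of CPM for each Gimap gene between 2 libraries, in 9 of the 10 comparisons (points), with exact 95% intervals for counting error; dashed lines mark 2-fold, and a gene with fewer than 20 UMIs over both libraries is left out. All 8 genes lie beyond the right dashed line for DN4 γδ+ over DN4 γδ−, and none lies beyond either line for Lat-KO γδ− over DN3a.

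At the first step of the γδ path, DN3b γδ+ over DN3a, Gimap4 was higher by a log2 ratio of 3.96 (3.33 to 4.68) and Gimap3 by 2.69 (1.62 to 4.03). Their DN3a levels, on 20 and 7 UMIs, were not told apart from free RNA, so the size of both ratios is uncertain. These 2 of 8 members were higher past 2-fold and 0 lower, beside 13.3% of 14472 genes higher and 24.0% lower. The members had a median log2 ratio of 0.29, against -0.23 over all genes. Gimap5 (0.27), Gimap7 (0.33) and Gimap8 (0.31) were slightly higher, Gimap6 was level (0.01, -0.05 to 0.08), and Gimap1 was lower (-0.59, -0.62 to -0.55). Gimap9 stood at -0.17, and at 0.15 with TMM factors, which moved this comparison by 0.32. The family sum was at -0.23, and turned to 0.16 among non-cycling barcodes and 0.09 with TMM factors. Cycling barcodes made up 93% of DN3b γδ+ and 8.74% of DN3a, and several members stood higher within each class than in the whole libraries. In non-cycling and cycling barcodes, Gimap6 was at a log2 ratio of 0.78 and 0.35, Gimap5 at 0.86 and 0.76 and Gimap8 at 1.12 and 0.90, with all 6 intervals above 0. Gimap7 went opposite ways, 0.97 and -0.48, and Gimap1 stayed lower (-0.35 and -0.15). Mature αβ T markers summed to 43.6 CPM in DN3b γδ+ and 3.26 CPM in DN3a, and erythroid markers to 28.9 and 0.149 CPM, and their part was not tested.

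At the first step of the αβ path, DN3b γδ− over DN3a, Gimap8 was lower by a log2 ratio of -2.10 (-2.40 to -1.81), Gimap5 by -1.17 (-1.26 to -1.08) and Gimap1 by -1.05 (-1.08 to -1.01). These were 3 of 8 members lower past 2-fold and 0 higher, beside 25.5% of 14768 genes lower and 10.4% higher. The ratios are of CPM and not of amounts per cell. Without thinning, Gimap1 was in 68.5% of DN3b γδ− barcodes (16948 UMIs in the median) and 69.1% of DN3a barcodes (7275 UMIs). The median over the members was -0.71, and over all genes -0.27. Gimap9 stood at -0.78, Gimap6 at -0.64 and Gimap3 at -0.22 (-1.40 to 1.19, on 38 and 7 UMIs). Gimap4 was higher (0.73, 0.07 to 1.47, on 209 and 20 UMIs) and Gimap7 (0.16, -0.04 to 0.36) differed by less than counting error. The DN3a levels of Gimap3 and Gimap4 were not told apart from free RNA, so the ratios of these 2 genes are uncertain. TMM factors shifted this comparison by 0.36, after which 1 member was lower past 2-fold (Gimap8, -1.74) and 1 higher (Gimap4, 1.09), with Gimap5 at -0.81 and Gimap1 at -0.69. The share of cycling barcodes was 95.5% in DN3b γδ− and 8.74% in DN3a. Among non-cycling barcodes 1 of 7 members compared was lower past 2-fold, namely Gimap8 (-2.33), with Gimap5 at -0.55, Gimap1 at -0.36, Gimap6 at 0.11 and Gimap7 at 0.84. Among cycling barcodes 1 of 8 was lower past 2-fold, Gimap8 at -1.44, and 1 higher, Gimap4 at 1.01 on 194 and 2 UMIs (-0.86 to 4.06), with Gimap5 at -0.66, Gimap1 at -0.63 and Gimap7 at -0.62. Mature αβ T markers summed to 19.5 CPM in DN3b γδ− and 3.26 CPM in DN3a (7.92 and 1.95 CPM without Cd8b1). B-cell markers stood at 236 and 143 CPM, erythroid markers at 24.9 and 0.149 CPM and plasmacytoid markers at 266 and 836 CPM. The part of these lists was not tested.

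Between the 2 populations of the split itself, DN3b γδ+ over DN3b γδ−, cycling shares were close (93% and 95.5%) and all 8 ratios were above 0. Of the members 4 were higher past 2-fold and 0 lower, beside 10.7% and 6.88% of 15209 genes. Their median log2 ratio was 1.05, beside -0.03 for all genes. Gimap4 was higher by a log2 ratio of 3.23 (3.02 to 3.45), Gimap3 by 2.91 (2.39 to 3.46), Gimap8 by 2.42 (2.20 to 2.63) and Gimap5 by 1.44. The others were Gimap6 at 0.65, Gimap9 at 0.60, Gimap1 at 0.46 and Gimap7 at 0.17. Among non-cycling and among cycling barcodes 4 of 8 were also higher, Gimap3 in the first class against 0 UMIs in DN3b γδ−. Mature αβ T markers stood at 43.6 CPM in DN3b γδ+, mostly Trac (39.3 CPM), and at 19.5 CPM in DN3b γδ−, mostly Cd8b1 (11.6 CPM). B-cell markers were at 105 and 236 CPM and NK and innate lymphoid markers other than Gata3 at 0.153 and 0.0148 CPM. The part of these lists was not tested.

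Along the αβ path, DN4 γδ− over DN3b γδ−, members went different ways. Gimap3 (0.378 and 0.112 CPM, on 92 and 38 UMIs) was higher by a log2 ratio of 1.75 (1.19 to 2.34), the 1 member past 2-fold upward, and 0 were past it downward, beside 6.95% and 3.82% of 15582 genes. Unthinned, Gimap3 was in 0.140% of DN3b γδ− and 0.103% of DN3a barcodes. The DN3a share was not told apart from free RNA, so the size of this ratio is uncertain. Medians were -0.22 over the members and -0.09 over all genes. Gimap4 (0.98) and Gimap8 (0.73) were also higher. Gimap5 (-0.61), Gimap1 (-0.51), Gimap7 (-0.47), Gimap6 (-0.31) and Gimap9 (-0.13) were lower, with all 5 intervals below 0. Among the 517 and 794 non-cycling barcodes, Gimap4 was higher by a log2 ratio of 4.04 (2.58 to 5.98; 43 and 4 UMIs) and Gimap8 by 3.33 (1.97 to 5.05; 33 and 5 UMIs), 2 of the 7 members compared past 2-fold. In the same barcodes Gimap5, Gimap6, Gimap7 and Gimap9 were above 0 instead (0.52, 0.34, 0.33 and 0.16), the intervals of Gimap7 and Gimap9 spanning 0, and Gimap1 stood at -0.19. With equal weights per barcode Gimap3 came to 0.97 and was no longer past 2-fold, while Gimap4 (1.69) and Gimap8 (1.34) were. Mature αβ T markers summed to 124 CPM in DN4 γδ− and 19.5 CPM in DN3b γδ−, and to 25.4 and 7.92 CPM without Cd8b1. The study describes expression of Cd8b1 as starting in DN4 γδ− cells, so Cd8b1 does not mark mature αβ T cells here. Erythroid markers summed to 170 and 24.9 CPM. The part of these lists in the ratios was not tested.

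In the Lat-KO γδ− cells the family was close to its level in WT DN3a. For Lat-KO γδ− over DN3a, 0 of 8 members were past 2-fold in either direction, beside 5.85% of 13465 genes higher and 3.85% lower. At such shares few or none of 8 would be, so this count says little about the family. The median log2 ratio of the members was 0.07, and that of all genes 0.22. The family sum differed by -0.05 (-0.08 to -0.02), with members between -0.62 (Gimap8) and 0.99 (Gimap3, on 13 and 7 UMIs, -0.44 to 2.55). Among the 623 and 565 cycling barcodes alone, Gimap7 (-1.01, -1.70 to -0.33, on 31 and 50 UMIs) and Gimap8 (-1.02, -2.50 to 0.36, on 8 and 13 UMIs) were lower past 2-fold. For Lat-KO γδint over Lat-KO γδ−, 0 of the 7 members with enough UMIs were past 2-fold, beside 5.55% of 13166 genes higher and 5.07% lower. At those shares, too, few or none of 7 would be. Here the medians were -0.13 for the members and 0.15 for all genes. Gimap9 (0.31), Gimap1 (0.16) and Gimap7 (0.39) were above 0 and Gimap5 (-0.17) and Gimap6 (-0.13) below it. Gimap1 turned to -0.09 with TMM factors. In the spiked-in B cells of the Lat-KO γδint and Lat-KO γδ− libraries, Gimap1 was at 659 and 543 CPM, Gimap9 at 171 and 109 CPM and Gimap7 at 128 and 106 CPM. Gimap6 was at 743 and 628 CPM there and Gimap5 at 117 and 126 CPM. The part of such library differences was not tested. Cycling barcodes made up 43.2% and 10.2% of these libraries, and within non-cycling and cycling barcodes Gimap5 (0.13 and 0.01) and Gimap6 (0.12 and 0.10) were not below 0.

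In γδint cells, which carry a γδ receptor that cannot signal through LAT, Gimap3, Gimap4 and Gimap8 were lower than in WT DN3b γδ+ cells. For Lat-KO γδint over WT DN3b γδ+, Gimap4 was lower by a log2 ratio of -3.87 (-4.71 to -3.14), Gimap3 by -2.67 (-4.31 to -1.42) and Gimap8 by -1.25 (-1.65 to -0.87). These were 3 of 8 members lower past 2-fold and 0 higher, beside 11.1% of 14315 genes lower and 31.8% higher. In Lat-KO γδint, Gimap4 and Gimap3 rest on 15 and 5 UMIs (0.397 and 0.132 CPM), close to DN3a (0.372 and 0.130 CPM). Levels that low were not told apart from free RNA, so the size of these 2 ratios is uncertain. Genotype and sorted stage (DN3 and DN3b) both differ in this comparison, and their parts cannot be told apart. The median log2 ratio was -0.33 over the members and 0.57 over all genes. Gimap1 was higher (0.77, 0.73 to 0.81) and Gimap6 stood at -0.01. The spiked-in B cells of the Lat-KO γδint and DN3b γδ+ libraries also differed. In them Gimap1 was at 659 and 328 CPM, Gimap9 at 171 and 65.7 CPM and the family at 2271 and 1235 CPM. Gimap4 was at 255 and 150 CPM there, Gimap3 at 130 and 125 CPM and Gimap8 at 67.8 and 53.2 CPM. The part of such library differences in the thymocyte ratios was not tested. TMM factors shifted this comparison by -0.74, which put Gimap1 at 0.03, Gimap6 at -0.75 and Gimap9, at 0.22 before, at -0.52. It also brought Gimap5 from -0.33 to -1.07 and Gimap7 from -0.34 to -1.08, so that 5 members were lower past 2-fold. Within non-cycling and cycling barcodes Gimap6 was lower (-0.48 and -0.32), with both intervals below 0. Cycling barcodes made up 43.2% of Lat-KO γδint, and 3 of 8 members were lower past 2-fold within cycling and within non-cycling barcodes. Mature αβ T markers summed to 5.95 CPM in Lat-KO γδint and 43.6 CPM in DN3b γδ+, and their part was not tested.

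Within DN4 γδ+, the Gimap genes were compared between barcodes with and without S1pr1, the sphingosine-1-phosphate receptor that mature thymocytes use to leave the thymus. At 4000 UMIs per barcode, 1363 barcodes (19.7%) held an S1pr1 UMI and 5571 did not. The family was at 1648 CPM with S1pr1 and 1110 CPM without it, 1.48-fold (log2 ratio 0.57, 0.53 to 0.60), and all 8 members were higher. Both sides are barcodes of 1 library, so this compares cells of that library and not samples.

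Gimap3 stood out in this split: 120 CPM with S1pr1 and 32.8 CPM without it, 3.67-fold (log2 ratio 1.88, 1.72 to 2.03). It was the 1 of 8 members higher past 2-fold and 0 were lower, beside 2.43% of 11745 genes higher and 4.09% lower. The median log2 ratio of the members was 0.55, and that of all genes -0.02. Gimap4 came next, at 234 and 117 CPM, 1.99-fold. Gimap7 was 1.83-fold higher (51.4 and 28.1 CPM), Gimap6 1.49-fold (486 and 325 CPM), Gimap8 1.43-fold (74.7 and 52.3 CPM) and Gimap5 1.40-fold (172 and 123 CPM). Gimap1 differed by 1.25-fold (314 and 252 CPM) and Gimap9 by 1.09-fold (196 and 180 CPM), and Gimap1os by less than counting error (58.9 and 56.6 CPM).

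By barcode, 31.7% of those with S1pr1 and 8.65% of those without it held Gimap3, and 51.5% and 29% held Gimap4. Mean Gimap UMIs per barcode were 4.44 with no S1pr1 UMI, 6.32 with 1, 6.88 with 2 and 7.32 with 3 or more. S1pr1 barcodes were rare elsewhere. In DN3b γδ+ 68 barcodes with S1pr1 held 4.49 Gimap UMIs (4.0 to 5.02) against 1.33 in the others, and in DN4 γδ− 33 such barcodes held 4.12 (3.46 to 4.87) against 0.705. In the 7 S1pr1 barcodes of DN3a, the mean was 1.71 (0.886 to 2.99) against 1.55.

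**Figure D4:**
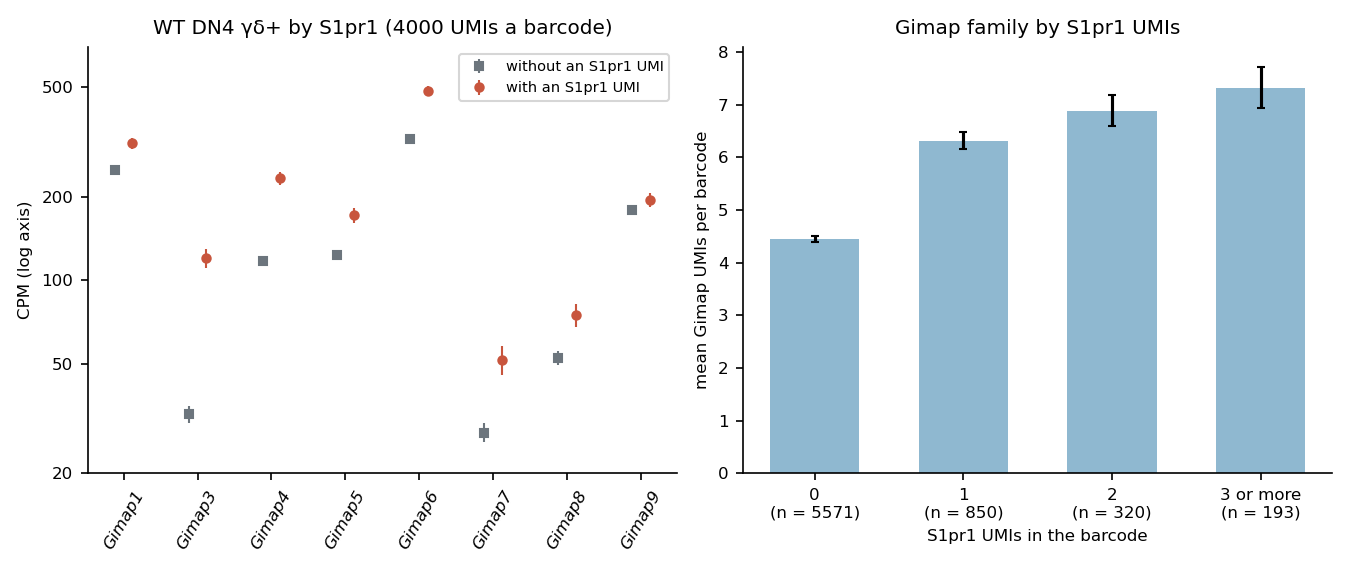
Left: level (CPM, log axis) of each Gimap gene in the DN4 γδ+ barcodes with (circles) and without (squares) an S1pr1 UMI at 4000 UMIs per barcode, with exact 95% Poisson intervals; Gimap3 shows the widest gap, 120 against 32.8 CPM. Right: mean Gimap UMIs per barcode by the number of S1pr1 UMIs (bars, with exact 95% Poisson intervals), from 4.44 with none to 7.32 with 3 or more.

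Other cell types and proliferation were read in the same split. Summed cycling markers were at 787 CPM with S1pr1 and 1032 CPM without it, B-cell markers at 303 and 316 CPM, mature αβ T markers at 123 and 110 CPM, plasmacytoid markers at 1022 and 1326 CPM with Siglech at 0 on both sides, T-cell markers at 11320 and 11010 CPM, and Gata3, which makes up nearly all of the NK and innate lymphoid list, at 189.8 and 369 CPM, with Ncr1 at 0 on both sides. Of 9 genes compared from the list of NK receptors and IFN-γ-producing γδ T cells, 0 were higher and 1, Gzma, lower past 2-fold (median log2 ratio 0.30), beside 2.43% and 4.09% of all genes. The NK receptor gene Klrd1 (26.8 and 13.5 CPM), Nkg7 (595 and 312 CPM), Il2rb (0.68) and Ikzf2 (0.58) were higher with S1pr1, and Ifng stood at 0.30 (-0.19 to 0.78). Xcl1 (-0.49) was lower, and Klrc1 (-0.45) and Eomes (-0.20) had intervals spanning 0. Among non-cycling barcodes alone the family ratio was 0.48. Of the 6 mature αβ T markers 2 were higher past 2-fold, Cd8b1 at 20 and 6.87 CPM (log2 ratio 1.54, 1.17 to 1.91) and Cd4 at 1.83 and 0.853 CPM on 10 and 19 UMIs (1.11, -0.16 to 2.28), while Trac, the bulk of the sum, stood at 85.1 and 80.8 CPM. The part of these other lists in the split was not tested. The 2 sides also differed in genes known from IL-17-producing γδ T cells: of the 6 compared 0 were higher and 5 lower past 2-fold (median log2 ratio -1.62), among them Blk (-1.93), Sox13 (-1.67) and Maf (-1.38). Gzma stood at 921 CPM with S1pr1 and 2826 CPM without it. Of the 10 genes listed for egress and quiescence other than S1pr1, 3 were higher past 2-fold (Klf2 at a log2 ratio of 1.39, Itgb7 at 1.36 and Foxo1 at 1.26) and 0 lower, beside 2.43% and 4.09% of all genes, while Ccr9 stood at -0.57. Of 14 survival and death genes 0 were higher and 2 lower past 2-fold, namely Bcl2a1d (-1.38, -2.88 to -0.18) and Bik (0.183 and 1.03 CPM, on 1 and 23 UMIs, with an interval from -7.86 to 0.13), and Bcl2 stood at 0.38.

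Several members were often found in the same DN4 γδ+ barcode. At 4000 UMIs the median DN4 γδ+ barcode held 4 Gimap UMIs of 3 members, 4.23% held none, and 34.8% held 4 or more members. In the 6 other libraries the median was 0 or 1 UMI, between 22.4% (Lat-KO γδint) and 53.8% (DN4 γδ−) of barcodes held none, and at most 1.88% (DN3b γδ+) held 4 or more members. Within DN4 γδ+ the 28 pairs of members had correlations between -0.0005 and 0.17 across 6934 barcodes, with a median of 0.083, too weak in sparse counts to be read as a finding.

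Gimap3, Gimap4, Gimap7 and Gimap8 were also sought together in single barcodes, a grouping made after their levels were known. At least 2 of these 4 were found in 19.0% of DN4 γδ+ barcodes, 0.525% of DN3b γδ+ (57 barcodes) and 0.279% of DN4 γδ− (33 barcodes), and in 2 to 4 barcodes of each of the 4 other libraries. In DN4 γδ− these barcodes carried 2.24 Klf2 UMIs per barcode against 0.0588 in the rest, 3.03 Trdc UMIs against 0.941 and 0.758 Trac UMIs against 0.0700. In DN3b γδ+ they carried 1.42 Klf2 UMIs against 0.235 and 6.21 Trdc UMIs against 4.39. Cd4 and Cd8a were at 0 in these barcodes of both libraries. The rest held only 0.0028 Cd4 and 0.0322 Cd8a UMIs per barcode in DN4 γδ− and 0.00037 and 0.00148 in DN3b γδ+. In 33 and 57 barcodes such zeros cannot tell whether αβ cells are among them. By share, Trdc was in 60.6% of these barcodes against 49.8% of the rest in DN4 γδ−, and in 98.2% against 94.7% in DN3b γδ+. Trac was in 36.4% of these barcodes against 5.79% of the rest in DN4 γδ−, and in 19.3% against 13.5% in DN3b γδ+. B-cell markers were at 1.61 against 1.13 UMIs per barcode in DN4 γδ− and 0.912 against 0.433 in DN3b γδ+, and mature αβ T markers at 1.09 against 0.534 and 0.298 against 0.181.

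Within DN4 γδ+, barcodes were also split by single marker genes of γδ T-cell states at 4000 UMIs, and family UMIs were higher with some of these genes and lower with others. Family UMIs per barcode were 7.29 with and 4.80 without Klrd1 (log2 ratio 0.60, 0.52 to 0.68), 6.81 and 4.81 for Eomes (0.50), 5.37 and 4.03 for Nkg7 (0.42), 5.43 and 4.14 for Klf2 (0.39), 5.87 and 4.63 for Il2rb (0.34) and 5.66 and 4.57 for Itgb7 (0.31). They were lower with Blk (4.20 and 5.16, -0.30), Sox13 (4.44 and 5.21, -0.23) and Maf (4.54 and 5.12, -0.17), genes known from IL-17-producing γδ T cells. They were also lower with Ccr9, a homing receptor (4.77 and 5.22, -0.13, -0.17 to -0.10), and higher with Ccr7 (5.25 and 4.80, 0.13). Cd24a, which marks immature cells, went with fewer Gimap UMIs (4.32 and 5.09, -0.24), as did Mki67, a proliferation gene (3.51 and 5.11, -0.54), and Zbtb16, which encodes PLZF (3.93 and 4.89, -0.31). A barcode can hold several of the 19 markers, so these splits overlap.

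The span was wider for Gimap3, Gimap4, Gimap7 and Gimap8 summed than for Gimap1, Gimap5, Gimap6 and Gimap9 summed. The first sum ranged from a log2 ratio of 1.26 with Klrd1 and 1.06 with S1pr1 to -0.86 with Blk. The second ranged from 0.41 with S1pr1 to -0.49 with Mki67, and stood at 0.34 with Klrd1 and -0.15 with Blk. With Gzma and Ccr9 the first sum stood at -0.52 and -0.51 and the second at -0.05 and -0.01. Zbtb16 was the other way round, -0.15 (-0.38 to 0.08) for the first and -0.37 (-0.50 to -0.24) for the second.

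**Figure D5:**
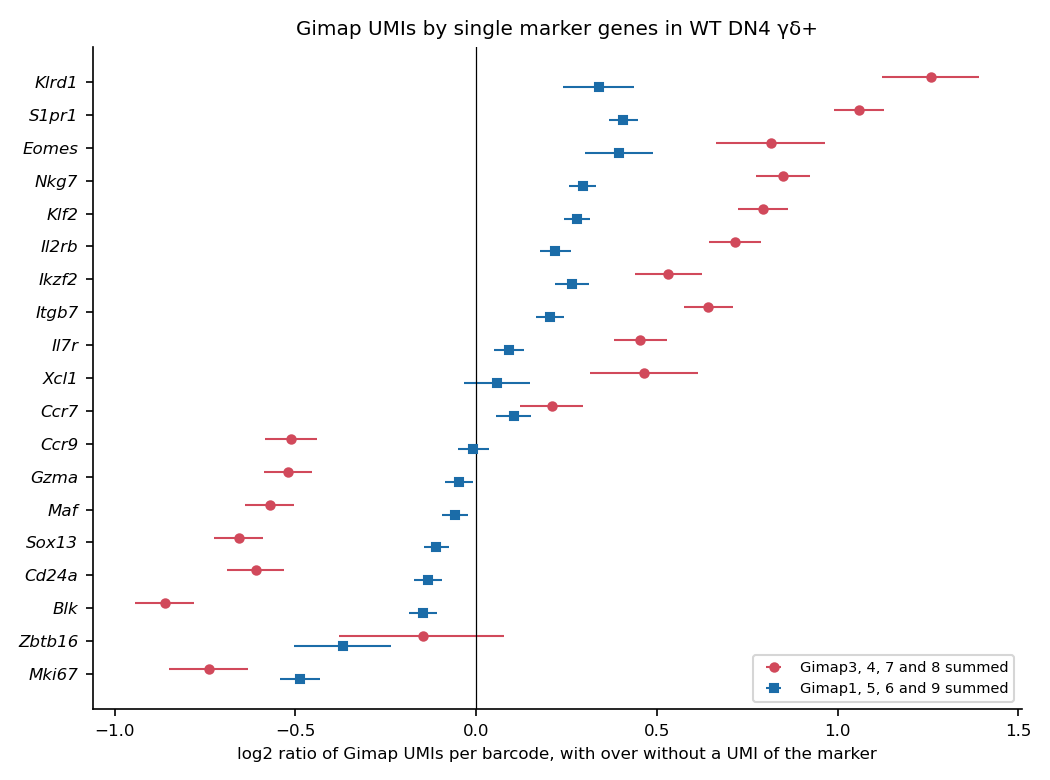
Log2 ratio of Gimap UMIs per barcode between DN4 γδ+ barcodes with and without a UMI of each of 19 marker genes at 4000 UMIs per barcode, with exact 95% intervals for counting error, for Gimap3, 4, 7 and 8 summed (circles) and Gimap1, 5, 6 and 9 summed (squares). The circles reach from -0.86 for Blk to 1.26 for Klrd1, the squares from -0.49 for Mki67 to 0.41 for S1pr1.

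Genes listed for egress and quiescence were read beside the family. For DN4 γδ+ over DN3b γδ+, 8 of the 11 were higher past 2-fold and 0 lower (median log2 ratio 2.42, beside 0.24 over all genes, of which 20.6% were higher and 8.03% lower), among them Itgb7 (3.54), Klf2 (2.50), Foxo1 (2.45), Ccr9 (2.43) and Btg1 (2.42), while Lef1 stood at -0.77. The other γδ lists moved the same way, so a rise beside the family is not particular to egress genes. Of 12 genes listed for NK receptors and IFN-γ-producing γδ T cells, 10 were higher and 0 lower (median 2.84). Of 8 compared from the list of IL-17-producing γδ T cells, 6 were higher and 0 lower (median 1.90). Of the 14 survival and death genes compared, 4 were higher and 0 lower (median 0.27), a share near that of all genes. The 4 were the death inducers Bmf (3.83), Bbc3 (2.26) and Bcl2l11 (1.96) and the survival gene Bcl2a1b (1.13). Bcl2 stood at -0.54. For Lat-KO γδ− over DN3a, 0 of the 11 egress genes were past 2-fold, beside 5.85% of all genes higher and 3.85% lower, a share at which few or none of 11 would be.

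Over the 7 libraries, the genes most like the family sum, by Pearson correlation of log2(CPM + 1) among 7022 genes of at least 20 CPM in 1 library, were Ubl3 (0.992), Smpdl3a (0.985), Pacs1 (0.985), Rnf145 (0.984) and S1pr4 (0.984). For the sum of Gimap3, Gimap4, Gimap7 and Gimap8, a likeness added after the levels were known, they were Gm14718 (0.996), Ccl5 (0.994), Samhd1 (0.991), S1pr1 (0.991) and Myo6 (0.990). With 7 points of which DN4 γδ+ stands apart, these describe the order of levels. Across DN4 γδ+ barcodes at 4000 UMIs, the closest genes were Ms4a4b (0.356), Ltb (0.336), Tmsb4x (0.335), Malat1 (0.293) and B2m (0.283), and the most opposed were Ptma (-0.372), Stmn1 (-0.299), Hmgb1 (-0.280), H2afz (-0.278) and Pclaf (-0.269), of which Stmn1, H2afz and Pclaf are high in dividing cells. These barcodes share 1 library and a fixed depth.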

How the data were processed

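Sorted thymocytes were profiled with a 10x Genomics 3′ kit, 1 library per population. The authors deposited filtered matrices of UMI counts per gene and barcode, aligned to mm10 with an added Trdc-GFP feature. The submitters' notes name Cell Ranger 5.0.1 and the file headers cellranger 4.0.0. The counts were used as deposited.

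Counts were summed over the thymocyte barcodes of each library and divided by their UMI total, from 37820685 to 338698944 UMIs. CPM was given an exact Poisson interval, shares a Clopper-Pearson interval, and log2 ratios an exact conditional binomial interval (95%); a group with 0 UMIs was set at a floor of 3 counts. With 1 library per group no test across samples was possible. Shares and values per barcode were taken after thinning each barcode to 4000 UMIs. Spiked-in B cells had at least 10 UMIs of the 3 B-cell genes and at most 2 of Cd3d, Cd3e and Cd3g. Doublets were kept, and leaving out the top 8% by score was an alternative.

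The named genes are the members, the gene lists and, by rule, the 5 genes most like the family. From the lists, 2 genes are not reported here and were left out of the counts. The members and lists were chosen with earlier results of these data known. Python 3.11.15, scanpy 1.11.5, scipy 1.17.1, edgeR 4.0.16 (TMM factors) and matplotlib 3.10.9 were used, and the ratios were tested on simulated data.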

Additional observations from a re-analysis of the deposited data

Results flagged for a closer look

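Several members moved in opposite directions on the γδ+ and γδ− paths; with 1 library per population the difference was not tested. From DN3b to DN4, Gimap6 was higher on the γδ+ path (log2 ratio 2.64) and lower on the γδ− path (-0.31), a difference of 2.95. The difference was 2.84 for Gimap7 (2.36 and -0.47), 2.55 for Gimap5 (1.94 and -0.61), 1.61 for Gimap1 (1.10 and -0.51) and 0.77 for Gimap9 (0.64 and -0.13). From DN3a to DN3b, Gimap8 stood at 0.31 on the γδ+ path and -2.10 on the γδ− path, a difference of 2.42, and Gimap5 at 0.27 and -1.17, a difference of 1.44. Both DN3b libraries and DN4 γδ− held 93% to 95.6% cycling barcodes and DN4 γδ+ 25.5%. Among non-cycling barcodes alone the γδ− values of DN4 over DN3b were above 0 for Gimap5 (0.52), Gimap6 (0.34), Gimap7 (0.33) and Gimap9 (0.16).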

How the results depend on the processing

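The alternatives were another thinning depth, other barcode filters (no quality filter, no B-cell UMI, at least 10 T-cell marker UMIs, top doublet scores left out, non-cycling barcodes alone), TMM scaling, a total without mitochondrial and ribosomal genes, equal weights per barcode, no filter on low counts and, chosen after seeing the data, a rule on T- and B-cell markers together. In 97 of 111 alternatives the number of members past 2-fold stayed within 1.5 times the value in the report. For DN3b γδ− over DN3a it went from 3 to 1 among non-cycling barcodes and to 5 with equal weights, and with TMM the 3 lower became 1 lower and 1 higher. For DN4 γδ− over DN3b γδ− it went from 1 to 2 among non-cycling barcodes, with the total without mitochondrial and ribosomal genes and with equal weights; under the first and last the 2 were Gimap4 and Gimap8 and not Gimap3. For Lat-KO γδ− over DN3a it went from 0 to 1 with no B-cell UMI, with the T- and B-cell marker rule and with equal weights. For Lat-KO γδint over DN3b γδ+ it went from 3 to 5 with TMM. For the S1pr1 split, where Gimap4 lay just under 2-fold, it went from 1 to 2 without thinning, with doublet scores left out and with the marker rule, and to 3 with at least 2 S1pr1 UMIs and with no B-cell UMI. The causes were not tested.

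TMM moved log2 ratios by -0.74 to 0.36. Of 85 member ratios over 0.05 in size, 16 took the other sign under at least 1 alternative, and none of the 32 ratios with DN4 γδ+ or S1pr1-positive barcodes on top did. The family sum turned from -0.32 to 0.15 for DN4 γδ− over DN3b γδ− among non-cycling barcodes, from 0.14 to -0.11 for Lat-KO γδint over Lat-KO γδ− and from 0.32 to -0.42 for Lat-KO γδint over DN3b γδ+ with TMM. No paired analysis was possible because each group has 1 library, which leaves fewer than 2 libraries a group to pair. No replicate could be left out. Depth limits Gimap3 and Gimap4 in DN3a and both Lat-KO libraries, where they rest on 5 to 22 UMIs.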
